A study of Mus musculus with 24 samples.

Results

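The fibroblast growth factor (FGF) genes and the genes that read out and restrain FGF signaling were examined in the mouse retina and eye cup. They were 37 of the 56748 genes in the count table. Membership followed gene names, as every protein-coding Fgf, Fgfr, Spry or Spred gene plus Dusp6, Etv1, Etv4 and Etv5. They comprised 15 paracrine ligands, 3 endocrine ligands (Fgf15, Fgf21, Fgf23), 4 FGF homologous factors (Fgf11 to Fgf14), 5 receptors, 7 feedback inhibitors (Spry1, Spry2, Spry4, Spred1, Spred2, Spred3 and Dusp6) and 3 ETS transcription factors.

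PRDM13-OE mice carry 1 copy of a dox-inducible, 3xHA-tagged human PRDM13 at Rosa26, in which the ubiquitous EF-1α promoter drives the reverse transactivator and TRE3G drives PRDM13, so that the transgene is not limited to one cell type. PRDM13-OE mice and wildtype littermates, all on C57BL/6J, were left untreated or drank water with 2 mg/mL dox and 10% sucrose for 72 hours from postnatal day 28, so dox and sucrose cannot be told apart here. Each of the 12 mice gave a neural retina and an eye cup (RPE with choroid and sclera), for 8 groups of 3 and 24 polyA RNA-seq libraries. The labels call the mice biological replicates, and the human transcript was not analysed here. Total counts ranged from 16034800 to 21513207 in the retinas and from 15825059 to 24908314 in the eye cups.

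FGFs are secreted proteins that bind receptor tyrosine kinases together with heparan sulfate, and the bound receptor activates the Ras and ERK kinases. ERK activity induces the transcription factors Etv1, Etv4 and Etv5 and also Sprouty, Spred and Dusp6, which damp the same cascade. The homologous factors share the FGF fold but stay inside neurons, where they modulate voltage-gated sodium channels. In the eye, FGFs act in lens fiber differentiation and in RPE and retinal patterning, and Fgf2 is known as a survival factor for photoreceptors.

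The sequences just upstream of 5 members are shown because, with Fgfr2, these members had the largest log2 folds among those at an adjusted p under 0.05 when PRDM13-OE retinas with dox were set against wildtype ones, Fgf2 upward and the others downward, although the fold of Fgfr3 rests on 2 wildtype retinas. Each window holds 200 bases, from 250 to 51 bases before the 5′ end of the gene as the deposited table lists it, read from GRCm39 on the strand of the gene. The windows are chr3:37402245-37402444 (+) for Fgf2, chr5:33878768-33878967 (+) for Fgfr3, chr5:108839998-108840197 (+) for Fgfrl1, chr11:19874125-19874324 (+) for Spred2 and chr16:22258520-22258719 (-) for Etv5. Each lies outside the annotated exons of its own gene. Capitals mark the E-box CAGCTG, a site class of basic helix-loop-helix factors that reads the same on both strands.
Fgf2: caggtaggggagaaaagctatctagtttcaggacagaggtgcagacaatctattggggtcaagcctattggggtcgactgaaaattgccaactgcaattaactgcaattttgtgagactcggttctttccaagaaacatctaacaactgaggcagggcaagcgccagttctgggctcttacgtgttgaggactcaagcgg
Fgfr3: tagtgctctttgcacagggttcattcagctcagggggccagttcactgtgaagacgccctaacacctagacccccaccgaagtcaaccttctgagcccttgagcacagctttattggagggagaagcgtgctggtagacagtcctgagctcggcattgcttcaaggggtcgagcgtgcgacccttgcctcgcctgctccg
Fgfrl1: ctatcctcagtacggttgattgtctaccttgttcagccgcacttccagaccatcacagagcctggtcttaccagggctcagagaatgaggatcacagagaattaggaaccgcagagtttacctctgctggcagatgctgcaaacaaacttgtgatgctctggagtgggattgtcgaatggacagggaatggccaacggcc
Spred2: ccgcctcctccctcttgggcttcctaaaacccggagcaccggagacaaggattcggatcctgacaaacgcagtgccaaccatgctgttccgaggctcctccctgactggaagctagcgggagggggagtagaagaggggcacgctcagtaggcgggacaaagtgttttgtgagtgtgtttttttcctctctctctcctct
Etv5: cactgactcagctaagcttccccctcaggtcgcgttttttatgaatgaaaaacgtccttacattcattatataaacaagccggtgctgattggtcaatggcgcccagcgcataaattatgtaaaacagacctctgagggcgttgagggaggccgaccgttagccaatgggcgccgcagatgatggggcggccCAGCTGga
Etv5 alone of these 5 windows held that E-box. Over the 21906 protein-coding genes, 2183 windows (9.97%) held it, and it stood in the windows of 6 of the 37 members, Etv1, Etv5, Fgf1, Fgf13, Spred1 and Spry4. The ETS sequence CCGGAAG, searched on both strands and sharing no base with the E-box, was in 992 windows (4.53%) and in 0 of the 37 member windows. A match is a description of the letters in a window and not a binding site. The window of Fgfr2 is counted among the 37 and held neither sequence, but it is not shown, since the listed span of the gene, chr7:129764181-132725079, runs past its neighbor Ctbp2 and its 5′ end is therefore doubtful.

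In untreated wildtype mice both classes were measured in both tissues, with the summed level of the intracellular homologous factors higher in the retina and that of the receptors higher in the eye cup. Levels of different genes are compared in FPKM, the deposited value scaled by gene length and sequencing depth. The 4 homologous factors summed to 56.3 ± 3.94 FPKM in the retina and 9.55 ± 5.60 in the eye cup (mean ± SD, n = 3 in both). The 5 receptors summed to 7.72 ± 0.648 FPKM in the retina and 65.8 ± 13.0 in the eye cup. Feedback inhibitors reached 67.4 ± 3.32 FPKM in the retina and 143 ± 29.4 in the eye cup, while the ETS factors were at 16.6 ± 3.56 and 17.1 ± 2.03.

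The 5 members with the highest level per kilobase in the untreated wildtype retina were Spry2 (24.5, 25.2 and 26.6 FPKM in mice 1, 2 and 3), Fgf11 (22.2, 21.1 and 22.8), Spred1 (20.4, 15.8 and 19.1), Fgf12 (16.5, 15.0 and 18.2) and Etv5 (16.3, 10.1 and 15.2). Spry2 and Fgf11 did not overlap with each other or with the members after them, whereas Spred1 overlapped with Fgf12 and Fgf12 with Etv5. In the eye cup the order was Dusp6 (35.1, 67.0 and 63.4 FPKM), Spry2 (21.9, 34.1 and 36.1), Spry1 (19.8, 29.7 and 27.1), Fgfrl1 (13.6, 19.4 and 24.4) and Fgfr1 (15.4, 20.2 and 20.2). Each of these eye cup members, from Dusp6, a phosphatase that inactivates ERK, to Fgfr1, overlapped with its neighbor in the order. At the other end, Fgf4 and Fgf20 had 0 counts in all 24 libraries. With a floor of 3 counts per library, which covers counting error only, 27 members were over the floor in all 12 retinas and 24 in all 12 eye cups.

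Of the 37 members, 32 passed the filter of 10 counts summed over the 6 untreated wildtype libraries, and 19 of them were called between retina and eye cup. Called means, throughout, that the log2 fold was past 1 either way with an adjusted p below 0.05. These were 59.4% of the members tested, beside 45.2% of all genes, and DESeq2 called 19 too, beside 45.1%. In the retina 10 were higher, beside 19.3% of all genes, and 9 lower, beside 25.9%. Their median log2 fold was 0.12 against -0.06 over all genes. Tissue differences of this kind cannot separate fewer cells of a type from less RNA per cell.

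Values below are counts scaled to the same library total (CPM), adjusted by TMM factors over all 24 libraries, for mice 1, 2 and 3 of a group in that order. Fgfr3 was at 0.598, 0.877 and 0.360 CPM in the retina and at 68.0, 112 and 51.3 CPM in the eye cup. Fgfr2 was at 4.14, 4.13 and 2.43 CPM in the retina and at 129, 201 and 175 CPM in the eye cup. Both receptor tyrosine kinases were lower in every retina than in any eye cup, with log2 folds of -7.07 (SE 0.44, adjusted p = 1.4e-05, edgeR quasi-likelihood test) and -5.65 (SE 0.30, adjusted p = 7.89e-06). Fgfr1 was at 46.7, 38.3 and 40.0 CPM in the retina and 151, 189.8 and 197 CPM in the eye cup, a log2 fold of -2.19 (SE 0.17). Fgfrl1, a receptor without a kinase domain, was at 9.01, 8.30 and 8.05 CPM in the retina and 37.6, 51.4 and 67.2 CPM in the eye cup, a log2 fold of -2.71 (SE 0.23). Fgfr4 did not pass the test, and its levels overlapped between the tissues. The eye cups also held markers of tissue other than RPE, choroid and sclera. In these mice 12 surface epithelium genes summed to 18766 to 20616 CPM in the eye cups and 4.64 to 7.22 CPM in the retinas. The part of such tissue in the eye cup levels of the members was not tested.

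All 4 homologous factors were called higher in the retina, with log2 folds between 2.34 and 3.22. Fgf12 was at 105, 97.2 and 115 CPM in the retina and at 24, 4.31 and 16.4 CPM in the eye cup. Fgf11 was at 69.3, 67.1 and 71.1 CPM in the retina and 21.1, 4.38 and 13.2 CPM in the eye cup. Fgf13 was at 56.4, 50.1 and 56.9 CPM against 13.3, 5.36 and 8.92 CPM. For each, the retinas were close together, and the eye cups spread widely with mouse 2 lowest and mouse 1 highest. Fgf14 followed the same order, from 21.8, 17.6 and 20.2 CPM in the retina to 3.11, 0.654 and 2.18 CPM. The sum of 14 rod marker genes in these eye cups, 28802, 3465 and 14361 CPM, had mouse 2 lowest and mouse 1 highest too, against 75720 to 77749 CPM in the retinas. The part of retinal RNA in these eye cup levels was not tested. Of the 8 voltage-gated sodium channel genes tested among 9 listed as partners of the homologous factors, 8 were called higher in the retina, with a median log2 fold of 3.35. In the other lists, more genes were called lower than higher in the retina, as over all genes, with 1 higher and 5 lower of 19 ERK cascade genes, 2 higher and 4 lower of 15 ERK feedback genes tested, and 5 higher and 8 lower of 22 co-receptor and heparan sulfate genes tested. Their median log2 folds were -0.01, -0.07 and 0.13.

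**Figure D1:**
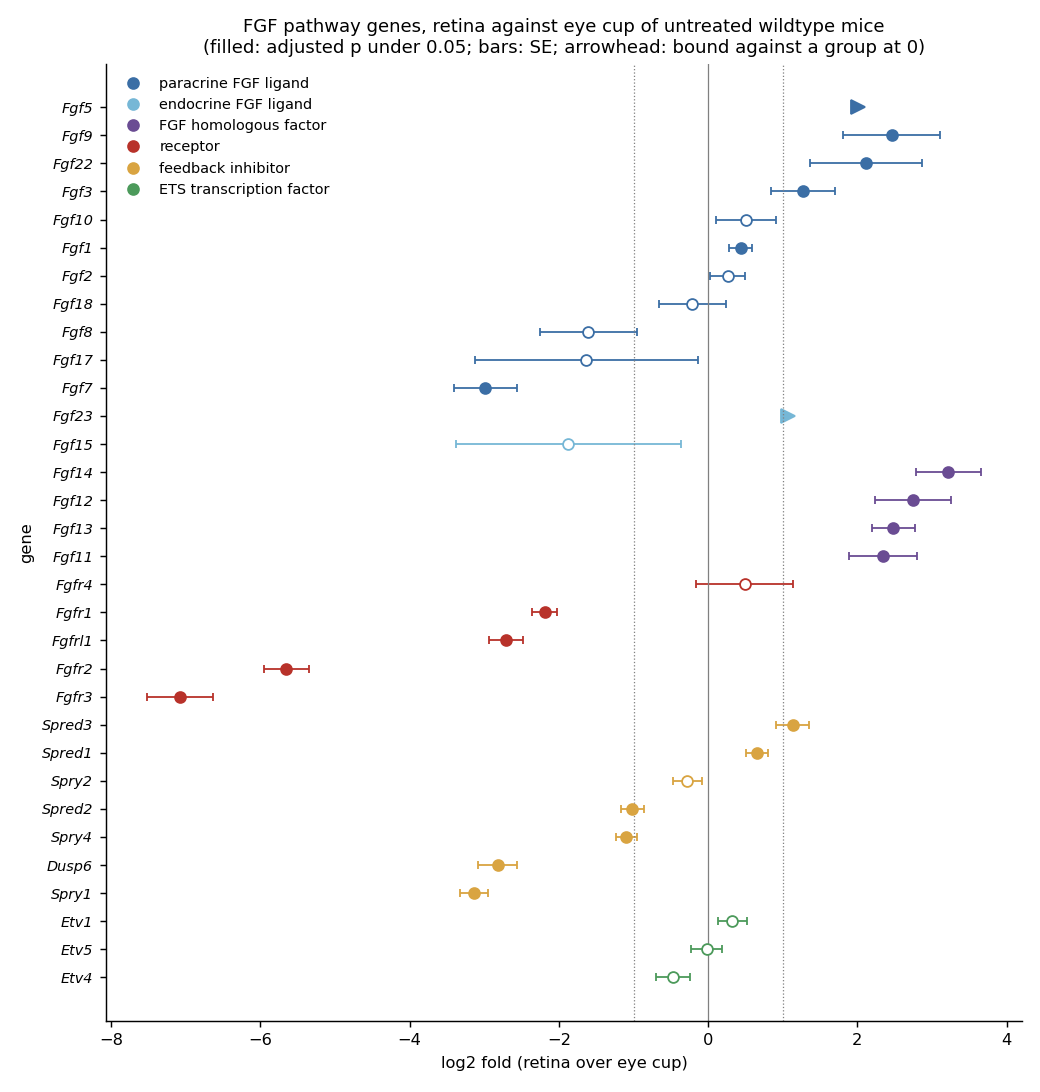
Log2 fold (x axis) of each member tested in untreated wildtype retina over eye cup, with its SE, n = 3 mice. Homologous factors lie between 2.34 and 3.22 and Fgfr2 and Fgfr3 lie below -5, while arrowheads give the lower bounds for Fgf5 and Fgf23, which had 0 counts in the eye cups.

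Among the secreted ligands, Fgf9, a neuronal and epithelial FGF, was higher in the retina. It was at 35.7, 32.4 and 35.6 CPM in the retina and at 10.4, 0.784 and 6.54 CPM in the eye cup, a log2 fold of 2.46 (SE 0.65, adjusted p = 0.0124). Fgf7, a ligand of mesenchymal cells, went the other way, with 0.322, 0.258 and 0.360 CPM in the retina and 2.72, 2.88 and 1.60 CPM in the eye cup (log2 fold -2.99, SE 0.42). Fgf5 and Fgf23 had 0 counts in the 3 eye cups and 10, 15 and 16 counts and 6, 10 and 5 counts in the retinas, which with the floor of 3 counts per library means at least 4.03-fold and at least 2.10-fold higher. Fgf3 was at 1.70, 1.60 and 1.39 CPM in the retina and 0.908, 0.523 and 0.388 CPM in the eye cup, and Fgf22 at 2.02, 1.75 and 1.35 CPM and 0.621, 0 and 0.436 CPM. Rnf126 on the opposite strand covers 81.7% of the exonic bases of Fgf22, so their reads cannot be told apart without strand, and it was at 45.5, 49.6 and 49.1 CPM in the retina and 64.8, 57.9 and 64.4 CPM in the eye cup. Fgf3 and Fgf22 were called higher in the retina at these low levels, but lost the call without any 1 of the 3 retinas (adjusted p from 0.0702 to 0.123) or without the eye cup of mouse 3 (0.0659 and 0.0795), and Fgf3 also without that of mouse 2 (0.0555). They lost it too when the pair of tissues from 1 mouse was fitted as a block (adjusted p = 0.0586 and 0.0577), as did Fgf23 (adjusted p = 0.0644). Fgf1, a ligand of all FGF receptors, was at 75.4, 64.1 and 73.9 CPM in the retina and 45.4, 58.6 and 44.7 CPM in the eye cup. Its log2 fold of 0.44 (SE 0.16) had an adjusted p of 0.0449, of 0.0807 with the block, and of 0.0501 to 0.14 without any 1 retina or the eye cup of mouse 3.

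Feedback inhibitors were divided between the tissues. Spry1 was at 8.23, 9.38 and 8.55 CPM in the retina and 56.8, 82.1 and 77.7 CPM in the eye cup (log2 fold -3.14, SE 0.19, adjusted p = 1.15e-05). Dusp6 was at 26.8, 24.1 and 25.1 CPM in the retina and 109, 199 and 196 CPM in the eye cup (log2 fold -2.82, SE 0.26). Both were lower in every retina than in any eye cup. Spry4, at 16.9, 17.5 and 14.8 CPM in the retina and 31.9, 37.1 and 30.1 CPM in the eye cup, and Spred2, at 27.9, 22.2 and 31.3 CPM and 52.5, 52.8 and 50.3 CPM, were also called lower in the retina. Their log2 folds of -1.10 and -1.02 fell short of the cutoff with library size alone in place of TMM, which moved the median log2 fold of all genes from -0.06 to 0.24. The other 2 inhibitors that differed went the other way. Spred3 was at 21.9, 26.3 and 23.6 CPM in the retina and 13.8, 7.19 and 9.89 CPM in the eye cup (log2 fold 1.13, SE 0.22). Spred1 was at 142, 112 and 133 CPM and 82.2, 66.9 and 82.6 CPM (log2 fold 0.66, SE 0.15, adjusted p = 0.00586, short of the fold cutoff). Spry2 overlapped between the tissues, and so did the 3 ETS factors, with adjusted p-values of 0.115 to 0.932. Etv5 was at 68.4, 43.4 and 63.8 CPM in the retina and 51.1, 53.3 and 64.0 CPM in the eye cup, a log2 fold of -0.02 (SE 0.20).

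With dox, 31 members could be tested between PRDM13-OE and wildtype retinas, and Fgf2 was the only member higher at an adjusted p under 0.05. Fgfr2 and Fgfr3 were the 2 members called, both lower, by edgeR and by DESeq2, beside 2.41% and 1.92% of all genes called and 1.5% called lower. At an adjusted p under 0.05 without the fold cutoff, 11 members changed (35.5% of those tested, beside 12.5% of all genes), 1 higher, beside 5.01%, and 10 lower, beside 7.51%. In 11 members the 3 PRDM13-OE retinas did not overlap with the 3 wildtype retinas, beside 31.8% of all genes. The median log2 fold of the members was -0.08, or -0.09 without Fgf17, against 0.01 over all genes. Fgf17 had at most 3 counts in each of these 6 retinas and gets no fold.

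Marker genes differed between these retinas as well. The summed level of 16 lens crystallins was 12122, 5354 and 157 CPM in the wildtype retinas with dox and 41.0, 52.0 and 29.4 CPM in the PRDM13-OE retinas with dox, and it lay between 39.2 and 955 CPM in the 6 untreated retinas. Of the 16 crystallins, 15 were over the floor in all 3 wildtype retinas with dox and 7 in all 3 PRDM13-OE retinas with dox, and 0 were at 0 throughout either group. The sum of 10 other lens genes was 730, 413 and 6.35 CPM in the wildtype retinas with dox and 2.38 to 61.4 CPM in the remaining 9. The sum of 14 rod genes was 55166, 56341 and 61602 CPM in PRDM13-OE retinas with dox and 73459 to 80003 CPM in the other 9 retinas. The summed levels of 5 further marker lists, in which every gene had counts in both groups, were also lower in the PRDM13-OE retinas with dox, without overlap with wildtype dox. Those of 12 amacrine genes were at 2135 to 2194 CPM against 2393 to 2556 CPM, and at 2318 to 2589 CPM in the untreated retinas. Müller glia (11 genes) were at 7473 to 7809 CPM against 7915 to 8164 CPM, and RPE (11 genes) at 179 to 190.0 CPM against 235 to 267 CPM. Ciliary and iris epithelium (6 genes) were at 20.8 to 78.4 CPM against 127 to 143 CPM, and fibroblast and sclera (12 genes) at 51.3 to 93.9 CPM against 103 to 138 CPM. The untreated retinas spanned 6788 to 8099 CPM for Müller glia and 77.1 to 457 CPM for RPE. They spanned 21.0 to 117 CPM for ciliary and iris epithelium and 41.2 to 143 CPM for fibroblast and sclera. Apart from the lowest ciliary and iris sum, the PRDM13-OE retinas with dox lay within these untreated ranges. Against wildtype retinas with dox, at an adjusted p under 0.05, 4 of the amacrine, 6 of the RPE, 5 of the ciliary and iris, 4 of the fibroblast and sclera and 5 of the Müller glia genes were lower, and 2 Müller glia genes were higher. The part of these cell types in the members' values was not tested. Fits without the 2 crystallin-rich retinas, chosen after the data were seen, are given beside the results for single members and for some genes of the wider pathway. They leave a single wildtype retina with dox that is assumed to vary like the other groups.

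Fgf2 was at 32.1, 34.1 and 32.4 CPM in PRDM13-OE retinas with dox and at 23.1, 17.1 and 19.2 CPM in wildtype retinas with dox. Untreated PRDM13-OE retinas had 24.5, 18.4 and 18.1 CPM, and untreated wildtype retinas 17.4, 24.3 and 18.8 CPM. The 3 PRDM13-OE retinas with dox lay above all 9 others, which overlapped among themselves. The log2 fold was 0.72 (SE 0.10, adjusted p = 0.000552, edgeR), a 1.65-fold difference, and 0.76 (adjusted p = 0.0359) without the 2 crystallin-rich retinas. Within PRDM13-OE mice, dox against untreated gave a log2 fold of 0.69 (SE 0.11, adjusted p = 0.002), the only member of 31 at an adjusted p under 0.05 in that comparison, beside 5% of all genes. Both comparisons use the same PRDM13-OE retinas with dox. With a covariate for the crystallin sum over all 12 retinas the log2 fold against wildtype was 0.76 and the adjusted p 0.138.

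Part of the Fgf2 locus is shared, since Nudt6 on the opposite strand covers 44.9% of its exonic bases, and whether strand was used in counting is not given in the sources used here. Nudt6 was at 1.5, 1.97 and 1.22 CPM in PRDM13-OE retinas with dox and 1.79, 1.21 and 0.780 CPM in wildtype retinas with dox. These levels overlapped between the groups (adjusted p = 0.619).

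**Figure D2:**
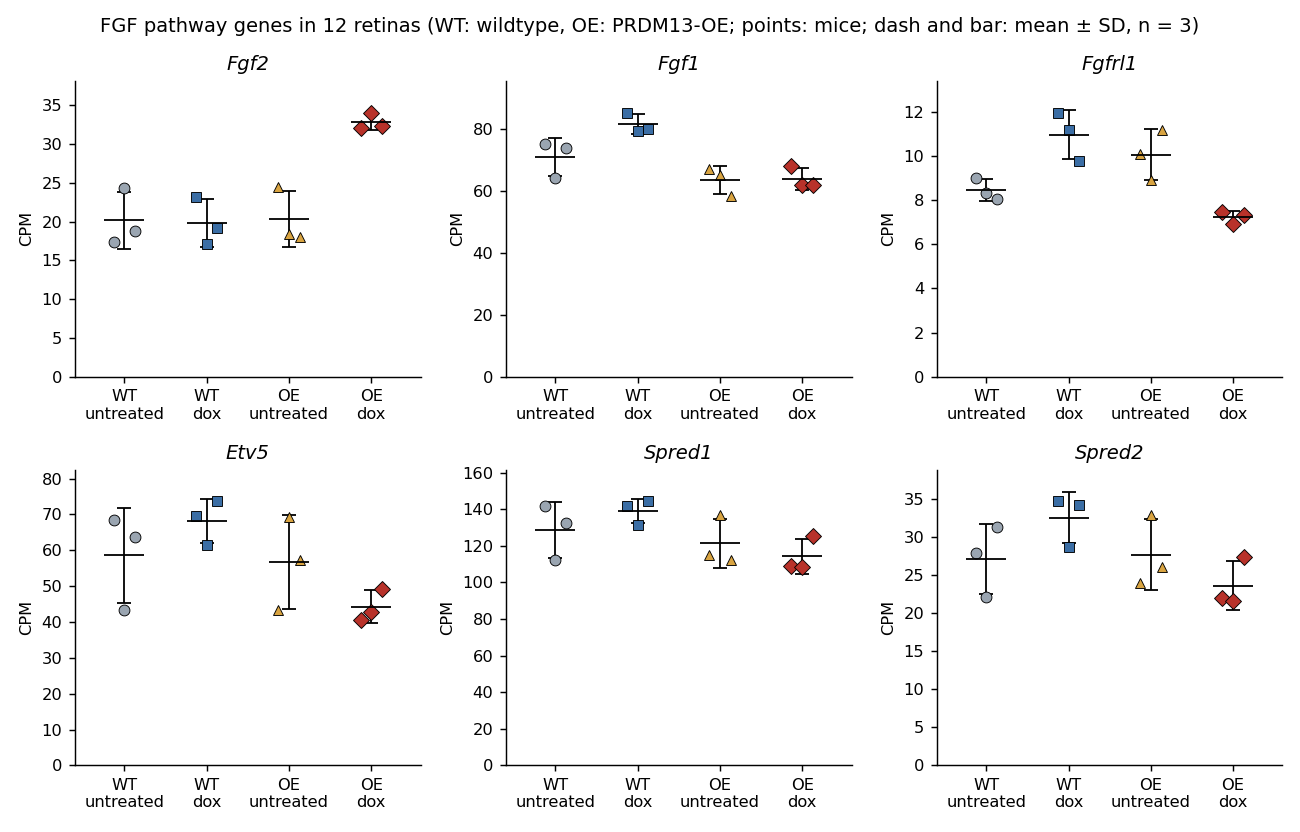
CPM (y axis) of Fgf2, Fgf1, Fgfrl1, Etv5, Spred1 and Spred2 in each of the 12 retinas by genotype (WT, wildtype; OE, PRDM13-OE) and treatment, with group means ± SD (n = 3). The 3 PRDM13-OE retinas with dox are highest for Fgf2, between 32.1 and 34.1 CPM, and lowest for Fgfrl1, between 6.89 and 7.47 CPM.

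Fgf1 was at 68.2, 62.2 and 61.9 CPM in PRDM13-OE retinas with dox and 85.4, 79.5 and 80.2 CPM in wildtype retinas with dox, and fell by 0.36 on the log2 scale (SE 0.06, adjusted p = 0.00231). The untreated retinas were at 67.3, 65.2 and 58.5 CPM in PRDM13-OE against 75.4, 64.1 and 73.9 CPM in wildtype. The groups with dox did not overlap, but the PRDM13-OE retinas with dox lay within the range of untreated PRDM13-OE apart from the highest, and against that group the log2 fold was 0.01 (adjusted p = 0.983). Without the 2 crystallin-rich retinas the log2 fold against wildtype was -0.34 (adjusted p = 0.114). Other paracrine ligands did not pass the test. Fgf9 was at 34.0, 31.1 and 38.3 CPM in PRDM13-OE against 34.0, 33.2 and 35.9 CPM in wildtype retinas with dox, and its groups overlapped.

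The receptors split. Fgfr2 was at 1.84, 2.18 and 2.48 CPM in PRDM13-OE retinas with dox and 10.0, 11.3 and 4.34 CPM in wildtype retinas with dox, with a log2 fold of -1.99 (SE 0.31, adjusted p = 0.00141). Fgfr3 was at 0.502, 0.933 and 0.507 CPM and at 10.4, 8.35 and 0.780 CPM, a log2 fold of -3.32 (SE 0.71, adjusted p = 0.00983). For both, wildtype mice 1 and 2 stood far above the rest, and for Fgfr3 wildtype mouse 3 lay below the highest PRDM13-OE retina, so the groups overlapped. Those 2 retinas are the ones with 12122 and 5354 CPM of crystallin, and the untreated retinas had 1.38 to 6.25 CPM of Fgfr2 and 0.290 to 1.16 CPM of Fgfr3. Without these 2 retinas the log2 folds were -1.01 (adjusted p = 0.373) and -0.28 (adjusted p = 0.888), and neither was called. The Fgfr3 call also ended without the retina of PRDM13-OE dox mouse 3 (adjusted p = 0.0565). Fgfr2 shares 2.77% of its exonic bases with Ctbp2 on the same strand, which was at 293 to 315 CPM in these 6 retinas with overlapping groups.

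Fgfrl1 was at 7.47, 6.89 and 7.30 CPM in PRDM13-OE retinas with dox and 11.9, 11.2 and 9.75 CPM in wildtype retinas with dox. Untreated PRDM13-OE retinas had 10.1, 8.91 and 11.2 CPM and untreated wildtype retinas 9.01, 8.30 and 8.05 CPM. The PRDM13-OE retinas with dox were below all 9 others, and the log2 fold was -0.61 (SE 0.12, adjusted p = 0.0061), or -0.45 (adjusted p = 0.242) without the 2 crystallin-rich retinas. Against untreated PRDM13-OE retinas it was -0.48 (SE 0.14, adjusted p = 0.0676). Fgfr1, at 4.09 ± 0.469 FPKM the receptor with the highest level per kilobase in untreated wildtype retinas, did not pass the test. It had 58.4, 54.3 and 58.3 CPM in PRDM13-OE against 56.8, 54.4 and 47.5 CPM in wildtype retinas with dox, which overlapped.

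**Figure D3:**
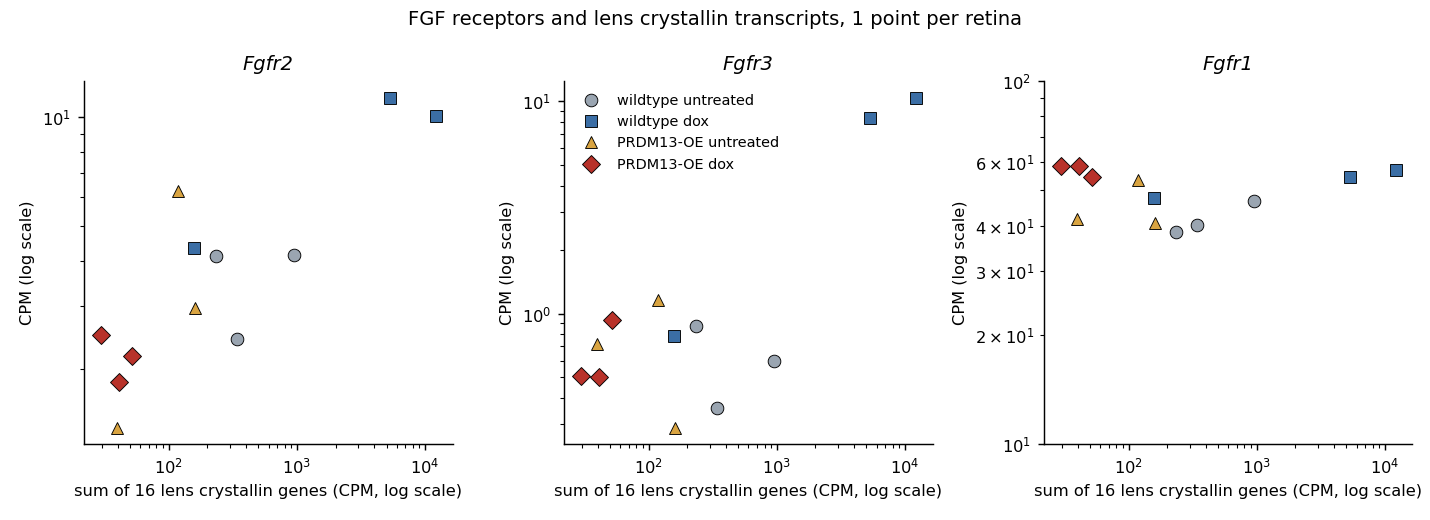
CPM of Fgfr2, Fgfr3 and Fgfr1 (y axes, log scale) against the summed CPM of 16 lens crystallins (x axis, log scale) in the 12 retinas, coded by group. The wildtype retinas with dox of mice 1 and 2, at 12122 and 5354 CPM of crystallin, hold the highest Fgfr2 and Fgfr3 values, while Fgfr1 stays between 38.3 and 58.4 CPM.

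Of the 7 feedback inhibitors, Spred1 and Spred2 fell, while Spred3 (log2 fold -0.11, adjusted p = 0.574), the Sprouty genes and Dusp6 did not pass the test. Spred2 was at 22, 21.6 and 27.4 CPM in PRDM13-OE retinas with dox and 34.7, 28.8 and 34.3 CPM in wildtype retinas with dox (log2 fold -0.47, SE 0.11, adjusted p = 0.013). Spred1 was at 109, 108 and 125 CPM and at 142, 132 and 144 CPM (log2 fold -0.29, SE 0.07, adjusted p = 0.0163). Neither overlapped with the wildtype retinas with dox, and both overlapped with the untreated retinas, which held 22.2 to 33.0 CPM of Spred2 and 112 to 142 CPM of Spred1. Dusp6 was at 27.3, 22.9 and 23.0 CPM against 26.8, 24.9 and 25.3 CPM and Spry2 at 51.0, 50.4 and 54.3 CPM against 60.3, 51.0 and 51.0 CPM, with overlapping groups in both. The class median was -0.08 on the log2 scale. Spred2 lost the test without the retina of PRDM13-OE dox mouse 2 (adjusted p = 0.0612) and Spred1 without that of mouse 1 (0.0575) or mouse 2 (0.0741). Without the 2 crystallin-rich retinas Spred2 was at -0.55 (adjusted p = 0.147) and Spred1 at -0.35 (adjusted p = 0.192).

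The ETS factor Etv5 was at 40.5, 42.8 and 49.3 CPM in PRDM13-OE retinas with dox and 69.6, 61.6 and 73.6 CPM in wildtype retinas with dox. It fell by 0.63 on the log2 scale (SE 0.09, adjusted p = 0.000558), with no overlap. Untreated retinas ranged widely, from 43.4 to 69.4 CPM in PRDM13-OE and from 43.4 to 68.4 CPM in wildtype, and so overlapped with both groups with dox. The log2 fold was -0.75 (adjusted p = 0.0785) without the 2 crystallin-rich retinas and -0.36 (adjusted p = 0.203) against untreated PRDM13-OE retinas. Etv1 and Etv4, which bind the same DNA sequence class, had log2 folds of -0.07 (adjusted p = 0.683) and 0.22 (adjusted p = 0.477).

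Among the homologous factors Fgf12, Fgf13 and Fgf14 fell and Fgf11 did not pass the test. Fgf12 was at 86.5, 93.2 and 80.6 CPM in PRDM13-OE against 103, 101 and 109 CPM in wildtype retinas with dox (log2 fold -0.27, SE 0.07, adjusted p = 0.0184). Fgf13 was at 51.0, 46.1 and 43.3 CPM and at 54.3, 54.8 and 60.8 CPM (log2 fold -0.28, SE 0.07, adjusted p = 0.0295). Fgf14 was at 15.5, 16.0 and 15.2 CPM and at 20.4, 18.3 and 19.7 CPM (log2 fold -0.33, SE 0.08, adjusted p = 0.0207). None of these 3 overlapped between the groups, whereas Fgf11 did, at 70.9, 62.6 and 66.2 CPM against 68.9, 69.3 and 70.0 CPM. Library size in place of TMM moved the median of all genes from 0.01 to 0.09 and left the 3 at adjusted p-values of 0.0707 to 0.117. Without the 2 crystallin-rich retinas their log2 folds were -0.39 to -0.34 (adjusted p from 0.0583 to 0.231). Each of the 3 also missed the threshold without the retina of PRDM13-OE dox mouse 3 (adjusted p from 0.0701 to 0.107), Fgf12 and Fgf14 without that of mouse 1 (0.0502 and 0.0537), Fgf13 without that of mouse 2 (0.0997), Fgf13 and Fgf14 without wildtype dox mouse 3 (0.089 and 0.0582) and Fgf14 without wildtype dox mouse 1 (0.0785). Itgbl1, on the opposite strand over 51.5% of the exonic bases of Fgf14, had 6.74, 6.32 and 5.93 CPM in PRDM13-OE against 4.56, 5.47 and 4.62 CPM in wildtype retinas with dox, higher where Fgf14 was lower (adjusted p = 0.132). The amacrine marker sum, like these 3 members, was lower in the PRDM13-OE retinas with dox, and its part in their levels was not tested.

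**Figure D4:**
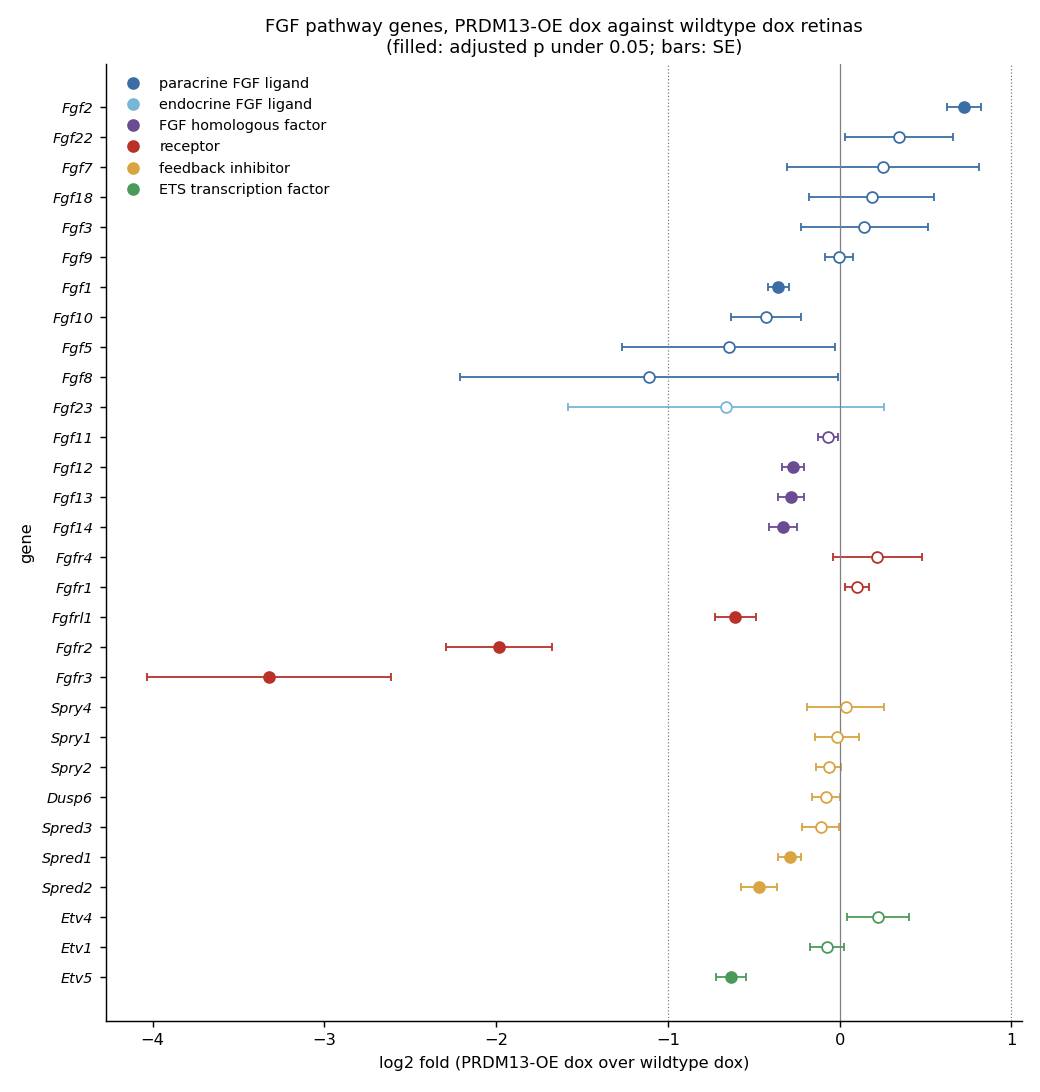
Log2 fold (x axis) of each member in PRDM13-OE over wildtype retinas with dox, with its SE (n = 3 per group), ordered by role. Filled points mark the 11 members at an adjusted p under 0.05, of which Fgf2 at 0.72 is the only one above 0.

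The wider pathway was read from 4 lists, whose counts at an adjusted p under 0.05 stand beside the 5.01% of all genes that were higher and the 7.51% that were lower. In the same retinas, 0 of 19 adaptors and kinases of the ERK cascade passed the edgeR test and 7 (beside 26.6% of all genes) had an unadjusted p under 0.05, with a median log2 fold of -0.04. The 16 other ERK feedback and response genes had a median log2 fold of 0.04. By DESeq2, 3 of them (Dusp4, Flrt1 and Ier3) had an adjusted p under 0.05, beside 12.1% of all genes. By edgeR, 2 of the 16 rose (Egr1 and Ier3) and 1 fell (Flrt1) at an adjusted p under 0.05. The only one called was Egr1, an immediate early transcription factor, at a mean of 179 ± 89.4 CPM in PRDM13-OE against 55.9 ± 37.5 CPM in wildtype retinas with dox (log2 fold 1.67, SE 0.44, adjusted p = 0.0282, and 0.087 by DESeq2). Without the 2 crystallin-rich retinas its log2 fold was 3.23 (adjusted p = 0.05005), which missed the threshold, while Fos (1.75, adjusted p = 0.0457) and Ier2 (0.83, adjusted p = 0.0327), both immediate early genes, passed it. Of 23 co-receptors, binding proteins and heparan sulfate genes, 1 rose (Gpc3) and 8 fell, with a median log2 fold of -0.26. The only one called, Hspg2, which encodes the basement membrane proteoglycan perlecan, was at -2.84 (SE 0.67, adjusted p = 0.0164) and overlapped between the groups, and without the 2 crystallin-rich retinas it was at -0.08 (adjusted p = 0.938). Of 8 sodium channel genes tested, 2 fell (Scn1a and Scn2a), and the median log2 fold of the 8 was 0.02. In the test of the difference between genotypes in their response to dox, 3 genes of these lists passed at an adjusted p under 0.05, beside 3.03% of all genes, the proteoglycan Sdc3, the sulfatase Sulf2 and the heparan sulfate polymerase Ext1, all lower. Sdc3 was at a mean of 139 ± 11.3 CPM in PRDM13-OE against 213 ± 6.07 CPM in wildtype retinas with dox (log2 fold -0.62, SE 0.06, adjusted p = 4.74e-05), and at -0.60 (adjusted p = 0.000899) without the 2 crystallin-rich retinas. With the same 10 retinas the difference in response to dox was at an adjusted p of 0.00912 for Sdc3, 0.00717 for Sulf2 and 0.138 for Ext1, and Fgfbp3, which encodes a secreted FGF binding protein, passed upward (log2 difference 1.79, adjusted p = 0.00529, beside 1.47% of all genes). Against wildtype in those 10 retinas, the co-receptor list had 1 gene higher, Fgfbp3 (log2 fold 1.22, adjusted p = 0.0135), and 4 lower, Kl (-1.08, adjusted p = 0.0299), Sdc3, Ext1 and Sulf2, beside 3.24% of all genes at an adjusted p under 0.05. With no retina left out Fgfbp3 was at 0.30 against wildtype with dox (adjusted p = 0.501) and 0.76 against untreated PRDM13-OE (adjusted p = 0.0171). Against untreated PRDM13-OE, 3 genes of that list were higher (Fgfbp3, Gpc3 and Sdc4), beside 2.04% of all genes. In the same comparison 3 were lower (Ext1, Sdc3 and Sulf2), beside 2.96%. Genes of these lists that were not called are named after their values were seen.

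Within PRDM13-OE retinas, dox against untreated called 0 of 31 members by edgeR and 0 by DESeq2, beside 1.04% and 0.927% of all genes, and 9 had an unadjusted p under 0.05, beside 15.6% of all genes. Of these 9 (29% of the members tested), 7 were lower with dox (Etv5, Fgf10, Fgf12, Fgf13, Fgfrl1, Spred3 and Spry2), beside 8.21% of all genes. The other 2, Fgf2 and Fgfr1, were higher, beside 7.4%. Fgfr1 was at 58.4, 54.3 and 58.3 CPM with dox and 53.3, 41.6 and 40.7 CPM without (log2 fold 0.33, SE 0.10, adjusted p = 0.0762). In wildtype retinas, dox against untreated called 0 of 30 members by edgeR and 0 by DESeq2, beside 0.00485% and 0.126% of all genes. An unadjusted p under 0.05 was reached by 8 (26.7%), beside 9.32%. Of these 8, 6 were higher with dox (Fgf1, Fgfr1, Fgfr2, Fgfr3, Fgfrl1 and Spred2), beside 4.69% of all genes, and 2 lower (Etv4 and Spred3), beside 4.63%. All of the higher ones but Fgfr1 were among the members lower in PRDM13-OE than in wildtype retinas with dox. Fgfr1 was higher with dox in both genotypes at an unadjusted p under 0.05. Fgfr3 and Fgfr2 had the largest log2 folds of these 8, 3.43 (adjusted p = 0.202) and 1.28 (adjusted p = 0.262). Without the retina of wildtype dox mouse 3, the only one of its group with little crystallin, both were called higher, beside 0.622% of all genes, the only change over the 6 retinas left out in turn.

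Untreated PRDM13-OE and untreated wildtype retinas were compared over 30 members, of which 0 were called by edgeR and 0 by DESeq2, beside 0% and 0.00968% of all genes. The number with an unadjusted p under 0.05 was 0, beside 3.76% of all genes. The difference between the genotypes in their response to dox was tested over all 12 retinas. It called 0 of 32 members by edgeR and 0 by DESeq2, beside 0.87% and 0.976% of all genes, and 8 had an unadjusted p under 0.05, beside 14.4%. Fgfrl1 was the only member at an adjusted p under 0.05, beside 3.03% of all genes (log2 difference -0.86, SE 0.17, adjusted p = 0.00878), and Fgf2 was next (0.71, SE 0.19, adjusted p = 0.0555). Without the retina of wildtype dox mouse 3, Fgfr2 and Fgfr3 were called lower in this test, beside 1.14% of all genes called, and without that of untreated PRDM13-OE mouse 2, Fgfr2 was, beside 1.04%. Without the 2 crystallin-rich retinas Fgfrl1 was at -0.70 (adjusted p = 0.186).

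In the eye cups the homologous factors and the receptors varied widely within groups, as did the markers of retina and RPE. Rod marker sums ranged from 3465 to 55334 CPM over the 12 eye cups and RPE marker sums from 9023 to 54938 CPM, so that each library held both. Sums of surface epithelium markers ranged from 1565 to 48977 CPM and those of skeletal muscle markers from 405 to 4074 CPM. Fgf12 was at 24, 4.31 and 16.4 CPM in untreated wildtype, 58.1, 58.5 and 46.4 CPM in wildtype with dox, 17.4, 38.8 and 4.36 CPM in untreated PRDM13-OE, and 15.1, 14.2 and 49.5 CPM in PRDM13-OE with dox. Fgfr2 was at 129, 201 and 175 CPM, 56.6, 93 and 114 CPM, 149, 151 and 230.2 CPM, and 97.9, 112 and 41.9 CPM in the same 4 groups. In wildtype mice with dox, Fgf12 was above and Fgfr2 below every untreated wildtype value, and in PRDM13-OE mice with dox mouse 3 stood apart in both. The rod sums were 28802, 3465 and 14361 CPM in untreated wildtype and 55334, 43020 and 29793 CPM in wildtype with dox, and the RPE sums 32521, 40871 and 49053 CPM and 10907, 13678 and 24380 CPM. Neither sum overlapped between these groups, and the part of tissue makeup in the members' values was not tested.

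**Figure D5:**
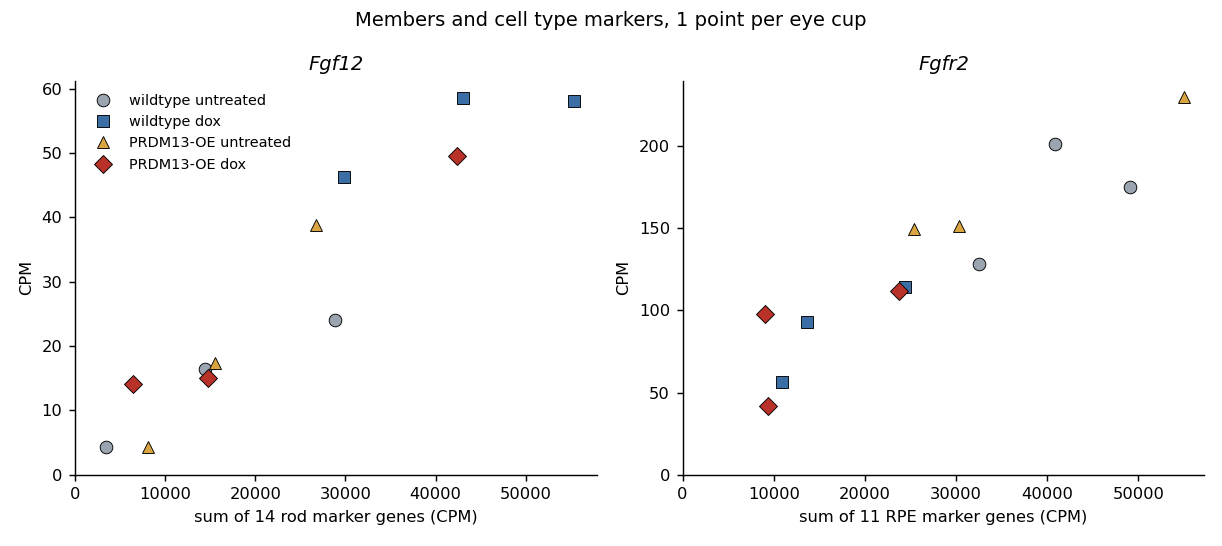
Left, CPM of Fgf12 against the summed CPM of 14 rod markers. Right, CPM of Fgfr2 against the summed CPM of 11 RPE markers, each point 1 of 12 eye cups coded by group. Fgf12 spans 4.31 to 58.5 CPM and Fgfr2 41.9 to 230.2 CPM, and both tend upward with the marker sum.

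Between wildtype eye cups with dox and untreated, 0 of 33 members were called by edgeR, beside 0% of all genes. By DESeq2 6 were called, Fgf11, Fgf12, Fgf13 and Fgf14 higher and Dusp6 and Fgfr2 lower, beside 9.03% of all genes. At an unadjusted p under 0.05 there were 15 members, beside 29.9% of all genes, with 7 higher (15.6% of all genes) and 8 lower (14.3%), and with adjusted p-values of 0.0673 to 0.158. The higher ones included all 4 homologous factors, with log2 folds of 1.52 to 2.00, and the lower ones 4 receptors (Fgfr1, Fgfr2, Fgfr3 and Fgfrl1, -1.01 to -0.58) and the inhibitors Spry1 (-1.0), Spry4 (-0.65) and Dusp6 (-1.13). Without the eye cup of untreated wildtype mouse 1, edgeR called 7 of 32 members, beside 9.41% of all genes, and without that of wildtype dox mouse 3 it called 2 of 31, beside 4.39%.

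In eye cups with dox, comparing PRDM13-OE with wildtype, 0 of 32 members were called by edgeR and 0 by DESeq2, beside 0.0184% and 0.556% of all genes, and 3 (Fgf1, Fgf5 and Fgf8) had an unadjusted p under 0.05, beside 8.24%. Fgf1 was at 25.6, 29.3 and 38.7 CPM in PRDM13-OE against 47.3, 51.9 and 53.5 CPM in wildtype eye cups with dox, which did not overlap (log2 fold -0.61, adjusted p = 0.597). Without the eye cup of PRDM13-OE dox mouse 3, which had 42337 CPM of rod markers against 14726 and 6393 CPM in the other two, edgeR called 3 of 32 members, beside 8.32% of all genes. PRDM13-OE eye cups with dox against untreated called 0 of 31 members by edgeR and 0 by DESeq2, beside 0.0139% and 0.273% of all genes, with 5 (16.1%) at an unadjusted p under 0.05, beside 4.14%. These 5, Dusp6, Etv5, Fgfr2, Fgfrl1 and Spry4, were all lower with dox, beside 3.04% of all genes. All but Etv5 were also lower with dox in wildtype eye cups at an unadjusted p under 0.05. Untreated PRDM13-OE against untreated wildtype eye cups called 0 of 32 by both tools, beside 0% and 0.0139% of all genes, with 0 at an unadjusted p under 0.05, beside 1.87%.

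Whether the difference between genotypes with dox was unlike in the 2 tissues was tested over the 12 libraries with dox. It called 0 of 33 members by edgeR and 0 by DESeq2, beside 0% and 0.148% of all genes, and 3 had an unadjusted p under 0.05, beside 7.17%. These were Fgfr2 (log2 difference -2.04), Fgfr3 (-3.66) and Fgf5 (3.31), each at an adjusted p of 0.685. Without the eye cup of PRDM13-OE dox mouse 3, edgeR called 6 of 33 members, beside 9.13% of all genes. Fgf2, which rose in the retina, was at 23.3, 14.2 and 21.0 CPM in PRDM13-OE against 31.5, 17.7 and 12.1 CPM in wildtype eye cups with dox, which overlapped. The genotype by dox difference over all 12 eye cups called 0 of 34 members by edgeR and 0 by DESeq2, beside 0% and 0.109% of all genes, with 3 at an unadjusted p under 0.05, beside 6.4%.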

How the data were processed

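Libraries were prepared from polyA RNA and sequenced by Novogene for the authors. The submitters' processing notes name HISAT2, CASAVA and GRCm39/mm39. The counting tool, annotation release and strand setting are not given in the sources used here. Raw read counts for each gene, as the authors deposited them, went into all tests. The authors also deposited FPKM values, computed from the length and count of each gene, which were used only to compare levels between genes. Total counts per library were 15825059 to 24908314, which limits members with a few counts. No pair of libraries within a group was a copy (24 pairs, lowest chi-square per degree of freedom over genes 3.6). Columns with the authors' own comparisons were not used.

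Genes whose counts added up to 10 or more in the libraries of a comparison were tested with edgeR 4.0.16 (R 4.3.3; TMM, glmQLFit without robust fitting, glmQLFTest) with Benjamini-Hochberg adjustment over all genes tested. Calls needed a log2 fold past 1 either way with an adjusted p below 0.05. Retina and eye cup libraries of a group with the same number come from the same mouse per the labels, and their deviations from the group means correlated weakly (r from 0.002 to 0.093 over 12 pairs), so the tissue comparison was also fitted with the mouse as a block. Alternatives were DESeq2 1.42.0, library size alone, no filter, filterByExpr, robust fitting, no fold cutoff, a replicate block, a joint fit of the 12 libraries of a tissue, covariates for lens crystallin, rod and skeletal muscle marker sums, and leaving out each library in turn. Leaving out both crystallin-rich retinas was added after seeing the data.

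Values are given in every library for members called in a comparison, members at an adjusted p under 0.05 and the 5 members with the highest FPKM in each tissue, and the rest by counts and ranges. Of the pathway lists (ERK cascade, other ERK feedback genes, co-receptors and heparan sulfate genes, sodium channels) counts, medians and called genes are given. The members and the lists were chosen with earlier results of these data known. Upstream windows were read with python 3.11.15 and pandas 2.3.3. The DESeq2 count for the list of ERK cascade genes is not reported here.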

Additional observations from a re-analysis of the deposited data

Results flagged for a closer look

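The response of Fgfrl1 to dox differed between the genotypes in the retina, by a test of the difference itself over all 12 retinas (log2 difference -0.86, SE 0.17, adjusted p = 0.00878, edgeR). In wildtype retinas Fgfrl1 went from 9.01, 8.30 and 8.05 CPM untreated to 11.9, 11.2 and 9.75 CPM with dox, higher in 3 of 3 mice than in any untreated mouse. In PRDM13-OE retinas it went from 10.1, 8.91 and 11.2 CPM to 7.47, 6.89 and 7.30 CPM, lower in 3 of 3. Neither step alone passed the adjusted threshold, and in wildtype mice the log2 fold was 0.38. The lens crystallin sum was 12122, 5354 and 157 CPM in the wildtype retinas with dox. The log2 difference was -0.70 (adjusted p = 0.186) without the first 2 of these retinas and -0.67 (adjusted p = 0.0965) with the crystallin sum as a covariate, and the part of lens material in it was not tested beyond these fits.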

How the results depend on the processing

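Counts are of members called, with the share of all genes called in the same fit in parentheses where a single fit is given. In PRDM13-OE against wildtype retinas with dox, 2 were called in the reported fit (2.41%), 1 with robust fitting (2.16%; Fgfr2), 11 with no fold cutoff (12.5%), 1 to 2 when a library was left out, and 0 either without both crystallin-rich retinas (0.849%) or with the crystallin covariate (0.626%), under which Fgfr3 reversed to a log2 fold of 0.21 (adjusted p = 0.949). In wildtype retinas, dox against untreated called 0, but 2 with no filter (0.655%), 2 with the replicate block (0.102%) and 0 to 2 with a library left out. PRDM13-OE retinas with dox against untreated called 0, and 1 with no fold cutoff (5%). The genotype by dox test in the retina called 0, but 2 with no filter (1.5%), 1 with no fold cutoff (3.03%), 1 with the replicate block (0.799%) and 0 to 2 with a library left out. In wildtype eye cups, dox against untreated called 0, but 2 with library size alone (3.47%), 6 with DESeq2 (9.03%), 6 with no filter (3.65%) and 0 to 7 with a library left out. PRDM13-OE against wildtype eye cups with dox called 0, and 0 to 3 with a library left out. The genotype by tissue test called 0, and 0 to 6 with a library left out. Retina against eye cup called 19 (45.2%), but 17 with library size alone (47.4%, without Spry4 and Spred2), 18 with filterByExpr (50.7%), 21 with no fold cutoff (61.5%), 16 with the mouse as a replicate block (40.8%, without Fgf3, Fgf22 and Fgf23) and 15 to 18 with a library left out. The cause was not tested in any of these. With library size alone, 7 members had an adjusted p under 0.05 in the retinas with dox, beside 15.5% of all genes, in place of 11, beside 12.5%. Fgf2 ranged from 0.62 to 0.85 on the log2 scale over all its alternatives. Of the values of single named members in that comparison, 125 kept direction and side of the threshold, 39 kept direction but missed it and 1 reversed. In retina against eye cup 233 kept both and 18 missed it. Mouse numbers pair the tissues only. Between groups of a tissue, same-numbered libraries shared only a number (r from -0.072 to 0.07 in retinas and -0.333 to 0.382 in eye cups), and the replicate block moved no count other than those given.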
